A study of Mus musculus with 15 samples.

Results

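Fatty acid desaturases were read from the 7 genes Fads1, Fads2, Fads3, Fads6, Scd1, Scd2 and Degs1, a list set by gene name with no threshold on any measured value. The list was chosen with earlier results of these data known. Probes were assigned to them by the transcript identifier printed on the array. This gave 8 probes of the 55681 on the array, 1 for each gene and 2 for Fads6, and 7 genes of the 20972 that could be given a symbol. All 7 genes passed the filter on dim probes and are among the 22557 genes tested, of which 13763 carried a symbol. The second Fads6 probe did not pass.

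The series measured left hemibrain RNA of male C57BL/6j mice that received 1 of 3 diets for 24 weeks from 3 weeks of age. The enriched diet (ERD) had a ratio of n-3 to n-6 fatty acids of 7 to 1, the balanced diet (BLD) one of 1 to 1 and the standard diet (STD) one of 1 to 6, with equal calories. Each diet had 5 Agilent arrays, and each array carried a hemibrain in the Cy5 dye and a common pool of RNA from 11 mouse cell lines in the Cy3 dye. A value below is the log2 ratio of hemibrain over that pool, unless another scale is named, so a value below 0 means that the hemibrain signal was the weaker one. Both fatty acid families were present in every diet, so each comparison is between diets labelled by their ratio. Whether other ingredients of the diets played a part was not tested.

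Desaturases place a double bond into a fatty acyl chain, with electrons passed on by cytochrome b5. Fads1 and Fads2 act in turn, with elongases, to make arachidonic acid from the n-6 precursor linoleic acid and eicosapentaenoic and docosahexaenoic acid from the n-3 precursor alpha-linolenic acid. Scd1 and Scd2 make the monounsaturated fatty acids oleate and palmitoleate from saturated ones, and Scd2 is the form for which the mouse brain is best known. Polyunsaturated fatty acids in the diet are known to lower transcripts of Fads1, Fads2 and Scd1 in liver, through SREBP-1c. Degs1 places the double bond that turns dihydroceramide into ceramide.

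The number of Cy5 spots well above background was 24692 ± 4193 in ERD, 27945 ± 3535 in BLD and 26949 ± 1612 in STD (SD, n = 5 each), and the lowest array was ERD 1 with 17720. ERD 1 also had the lowest median correlation with the other arrays (r = 0.880 across genes), and ERD 1, ERD 4 and BLD 3 were the 3 least correlated arrays. The 15 arrays were spread over 8 slides, and 1 ERD, 3 BLD and 0 STD arrays were scanned on the later of 2 days. Of 9 neuronal markers 8 were well above background on all 15 arrays, as were 7 of 9 oligodendrocyte and 6 of 8 astrocyte markers, so the labelled tissue was borne out. The median log2 ratio of the neuronal markers was 3.05 to 3.78 on ERD arrays, 3.00 to 3.79 on BLD arrays and 3.32 to 3.78 on STD arrays.

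In hemibrains of the ERD group, Scd1, Fads1 and Scd2 had means 1.87-fold, 1.55-fold and 1.45-fold lower than in STD. The other 4 desaturases had log2 changes between -0.09 and 0.10. That order depends on the scaling: from the processed signals, the dim genes Fads2 and Fads6 had log2 changes of -0.86 and -0.73, larger in size than that of Scd2 at -0.41, and none of these 3 passed the test. None of the 7 passed an adjusted p of 0.05 in limma with Benjamini-Hochberg adjustment, where 0.217% of all genes did (49 of 22557). The 3 genes named first had an unadjusted p under 0.05, all of them lower in ERD, a state that 7.55% of all genes shared. An unadjusted p under 0.05 in either direction was reached by 14.6% of all genes. The ERD and STD arrays were fully apart in 0 of the 7 genes, against 3.78% of all genes. With no threshold, 5 of the 7 were lower in ERD, as were 47.1% of all genes. The median log2 change of the 7 was -0.09, and that of all genes tested was 0.02. The median of the 7 was -0.73 from the processed signals, with 6 of 7 lower, -0.21 with no background correction and -0.03 after median centring, where that of all genes was -0.04, -0.01 and -0.02.

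**Figure D1:**
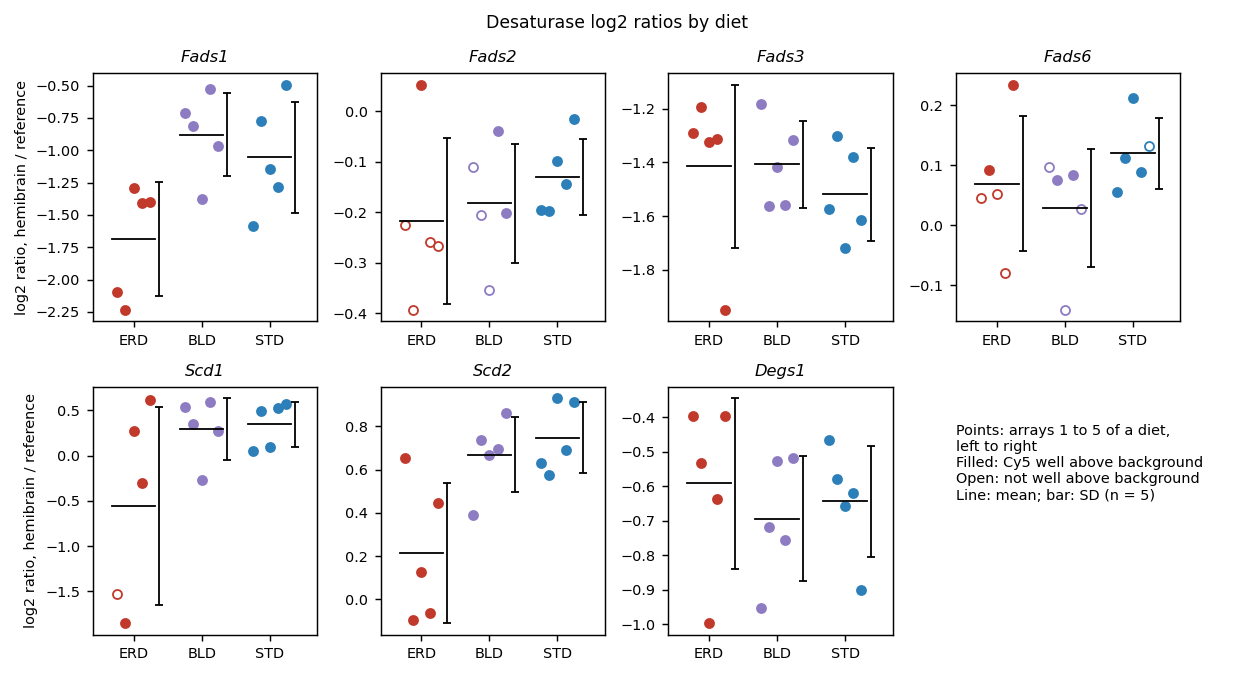
Log2 ratio of hemibrain over reference (vertical axes, each gene on its own range) for the 7 desaturases in ERD, BLD and STD. Points are arrays 1 to 5 of a diet from left to right, open where the Cy5 spot was not well above background, with the mean as a line and the SD as a bar (n = 5). In Fads1 and Scd1 the arrays ERD 1 and ERD 2 lie lowest, while in Scd2 the arrays ERD 2, ERD 3 and ERD 4 do.

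Fads1 carries out the last desaturation on the way to arachidonic and eicosapentaenoic acid. Its log2 ratio was -2.09, -2.24, -1.29, -1.41 and -1.40 on arrays ERD 1 to ERD 5. On the BLD arrays it was -0.71, -0.81, -1.38, -0.53 and -0.97, and on the STD arrays -1.59, -0.77, -1.14, -1.28 and -0.49. ERD 1 and ERD 2 lay below all other arrays, and the remaining ERD arrays lay within the range of the STD arrays. Fads1 averaged -1.69 ± 0.44 in ERD, -0.88 ± 0.32 in BLD and -1.06 ± 0.43 in STD (SD, n = 5 each).

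Against STD the log2 change of Fads1 in ERD was -0.63 ± 0.23 (SE; 95% interval -1.13 to -0.13; adjusted p = 0.242 in limma). Against BLD it was -0.81 ± 0.23 (95% interval -1.31 to -0.31; adjusted p = 0.331 in limma), and 4 of 5 ERD arrays lay below all BLD arrays. BLD had the highest mean of the 3 diets, but its difference from STD was 0.18 with an interval of -0.32 to 0.67. The 2 comparisons with ERD share the ERD arrays, and both comparisons with STD share the STD arrays, so they are not independent of each other.

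In the Cy5 channel, Fads1 had a processed intensity of 189, 736, 1274, 730 and 1346 on the 5 ERD arrays. It lay between 1088 and 3114 on BLD arrays and between 1189 and 2828 on STD arrays, and all 15 spots were well above background. From Cy5 alone the log2 change was -0.71 in ERD against STD and -0.71 in ERD against BLD. The Cy3 channel, which held the same reference pool everywhere, changed by -0.01 and 0.07 in those comparisons. For these changes each channel was first quantile-normalized across arrays, while the processed intensities were not. Processed Cy3 of Fads1 was 2219 on ERD 1, 2575 to 4902 on BLD arrays and 3346 to 4939 on STD arrays. ERD 1 was thus dim in the reference as well. After quantile normalization, the difference in the ratio was also present in the hemibrain channel read by itself.

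**Figure D2:**
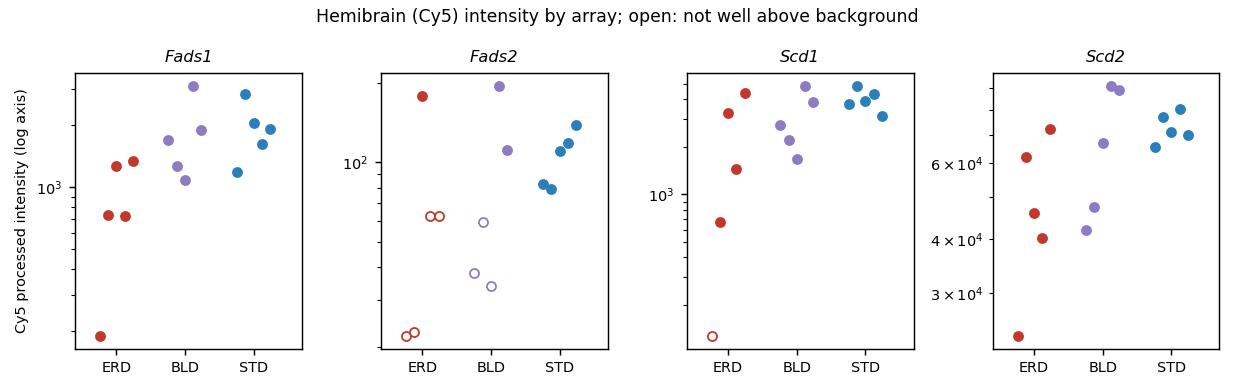
Processed Cy5 intensity of the hemibrain sample on a log axis for Fads1, Fads2, Scd1 and Scd2, by array (points, 1 to 5 from left to right) and diet. Open points were not well above background. Intensities were not scaled between arrays. ERD 1 has the lowest intensity in all 4 genes, and Fads2 was well above background on 1 ERD, 2 BLD and 5 STD arrays.

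Fads2 catalyses the first desaturation of linoleic and alpha-linolenic acid. Its spot was dim: the processed Cy5 intensity was 21.9 to 177 on ERD arrays, 34.1 to 195 on BLD arrays and 79.3 to 138 on STD arrays. It was well above background in Cy5 on 1 of 5 ERD arrays (ERD 3), 2 of 5 BLD arrays and 5 of 5 STD arrays. In Cy3 it was well above background on 5 ERD, 4 BLD and 5 STD arrays.

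The log2 ratio of Fads2 was -0.22, -0.39, 0.05, -0.26 and -0.27 on the ERD arrays. It was -0.11, -0.21, -0.35, -0.04 and -0.20 on the BLD arrays and -0.19, -0.20, -0.10, -0.14 and -0.02 on the STD arrays. On 4 ERD arrays Fads2 lay below all STD arrays, and on ERD 3 it lay above them all. The log2 change was -0.09 ± 0.10 in ERD against STD (SE; 95% interval -0.30 to 0.13; adjusted p = 0.707 in limma) and -0.04 in ERD against BLD (adjusted p = 0.930 in limma).

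Before background correction the median Cy5 intensity of the Fads2 spot was 19 to 42, with a local background of 17 to 20. The correction adds an offset of 50, more than that signal, and the ratio of Fads2 moved with the background treatment. On ERD 1 the Fads1 and Scd1 spots, at 27 each, also lay below the offset. In the authors' deposited ratios, converted to log2, Fads2 averaged -1.79 ± 1.20 in ERD, -1.17 ± 0.76 in BLD and -0.94 ± 0.47 in STD (SD, n = 5 each). The change of ERD against STD on that scale was -0.86, with an adjusted p of 0.348 in limma. On neither scale did Fads2 pass the test.

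Fads3, a close relative of Fads1 and Fads2 that acts on sphingoid bases and on vaccenic acid, was measured on all 15 arrays in both channels. It averaged -1.41 ± 0.31 in ERD, -1.41 ± 0.16 in BLD and -1.52 ± 0.17 in STD (SD, n = 5 each). The ERD arrays read -1.29, -1.19, -1.32, -1.31 and -1.95, and ERD 5 stood below the other 14 arrays. The log2 change was 0.10 in ERD against STD with a 95% interval of -0.20 to 0.41, and -0.01 in ERD against BLD with an interval of -0.31 to 0.30. The interval of ERD against STD does not reach the change of Fads1, -0.63, although the difference between both genes was not itself tested.

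Fads1, Fads2 and Fads3 lie next to each other on chromosome 19, in the order Fads3, Fads2, Fads1 with 0 protein-coding genes between neighbours in RefSeq's annotation of GRCm38.p6. Between ERD and STD their log2 changes were 0.10 for Fads3, -0.09 for Fads2 and -0.63 for Fads1. From the processed signals they were -0.04, -0.86 and -1.06, so that Fads2 was then nearer to Fads1 than to Fads3. Fads6, a less studied member of the family, lies on chromosome 11. Its tested probe was dim, well above background in Cy5 on 2 ERD, 2 BLD and 4 STD arrays. Its log2 ratio lay between -0.08 and 0.23 on ERD arrays, between -0.14 and 0.10 on BLD arrays and between 0.06 and 0.21 on STD arrays. The second Fads6 probe was well above background in Cy5 on 0 ERD, 0 BLD and 0 STD arrays, so the Fads6 values rest on 1 dim probe. The log2 change of Fads6 was -0.05 in ERD against STD, with an interval of -0.24 to 0.14. From the processed signals it was -0.73 in ERD against STD (adjusted p = 0.293 in limma) and -0.89 in BLD against STD (adjusted p = 0.364 in limma), both outside the intervals of the offset scale.

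Scd1 is the stearoyl-CoA desaturase best known from liver and adipose tissue. Its log2 ratio was -1.53, -1.86, 0.28, -0.30 and 0.62 on arrays ERD 1 to ERD 5. It was 0.53, 0.35, -0.28, 0.59 and 0.28 on the BLD arrays and 0.05, 0.49, 0.10, 0.52 and 0.57 on the STD arrays. ERD 1 and ERD 2 stood far below the other 13 arrays, ERD 4 lay just below the lowest BLD array, and ERD 5 was the highest of all 15. The SD was accordingly 1.09 in ERD, against 0.34 in BLD and 0.25 in STD (n = 5 each).

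The log2 change of Scd1 in ERD was -0.90 ± 0.38 against STD (SE; 95% interval -1.72 to -0.09; adjusted p = 0.296 in limma). Against BLD it was -0.85 ± 0.38 (95% interval -1.67 to -0.04; adjusted p = 0.470 in limma). Without ERD 1 the change against STD was -0.66, and without ERD 2 it was -0.58. The model gives all diets the same spread, while the ERD spread of Scd1 was the widest of the 3.

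The Cy5 intensity of Scd1 was 127 on ERD 1, where the spot was not well above background, and 673 on ERD 2. On the other 3 ERD arrays it was 3256, 1458 and 4376, against 1683 to 4859 on BLD arrays and 3151 to 4847 on STD arrays. From Cy5 alone, after quantile normalization, the change was -0.93 in ERD against STD, while Cy3 changed by -0.07. Processed Cy3 of Scd1 was 1313 on ERD 1, against 2198 to 3304 on STD arrays. ERD 1 had the fewest detected Cy5 spots of all arrays, while ERD 2 had 28117. On the offset scale ERD 2 had the lowest log2 ratio of Scd1 of all. In the deposited ratios on the log2 scale ERD 1 had it, at -3.37 against -2.26 on ERD 2. ERD 1 and ERD 2 also had the lowest array weights of all arrays, 0.494 and 0.479. The part of the low detection of ERD 1 in its Scd1 value was not tested.

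Scd2 had the lowest p of the 7 genes in ERD against STD, at rank 402 of the 22557 tested. Its log2 ratio was 0.65, -0.09, 0.13, -0.06 and 0.45 on arrays ERD 1 to ERD 5. On the BLD arrays it was 0.39, 0.74, 0.67, 0.69 and 0.86, and on the STD arrays 0.63, 0.57, 0.93, 0.69 and 0.91. ERD 2 to ERD 5 lay below all STD arrays, and only ERD 1 lay within their range.

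Scd2 averaged 0.21 ± 0.33 in ERD, 0.67 ± 0.17 in BLD and 0.75 ± 0.16 in STD (SD, n = 5 each). The log2 change of ERD was -0.53 ± 0.15 against STD (SE; 95% interval -0.85 to -0.22; adjusted p = 0.142 in limma). Against BLD it was -0.46 ± 0.15 (95% interval -0.77 to -0.14; adjusted p = 0.370 in limma). From Cy5 alone the changes were -0.44 and -0.40, and Cy3 changed by 0.07 in both comparisons. In the authors' deposited ratios on the log2 scale, ERD 1 read 0.06 instead of 0.65, and the ERD mean was 0.28 ± 0.28, against 0.78 ± 0.13 in BLD and 0.69 ± 0.23 in STD (SD, n = 5 each). On that scale the 5 ERD arrays read 0.06, 0.14, 0.22, 0.18 and 0.77, so that ERD 5, and not ERD 1, was the array within the STD range.

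Scd1 and Scd2 lie in 1 run of genes on chromosome 19 in the order Scd3, Scd2, Scd4, Scd1, with 0 protein-coding genes between neighbours. These genes are close relatives in sequence, and whether a probe also binds transcripts of a neighbour was not tested. Scd3, which was not among the 7, had log2 changes of 0.14 in ERD against STD, 0.01 in BLD against STD and 0.13 in ERD against BLD (adjusted p = 0.853, 0.994 and 0.910 in limma). The direction of those Scd3 values turned under several other treatments of the data.

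Degs1, on chromosome 1, was well above background in both channels on all arrays. It averaged -0.59 ± 0.25 in ERD, -0.69 ± 0.18 in BLD and -0.64 ± 0.16 in STD (SD, n = 5 each). ERD 3 was its lowest array at -0.997, and the ranges of the 3 diets overlapped throughout. The log2 change was 0.05 in ERD against STD with a 95% interval of -0.23 to 0.33, and 0.10 in ERD against BLD with an interval of -0.18 to 0.38.

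**Figure D3:**
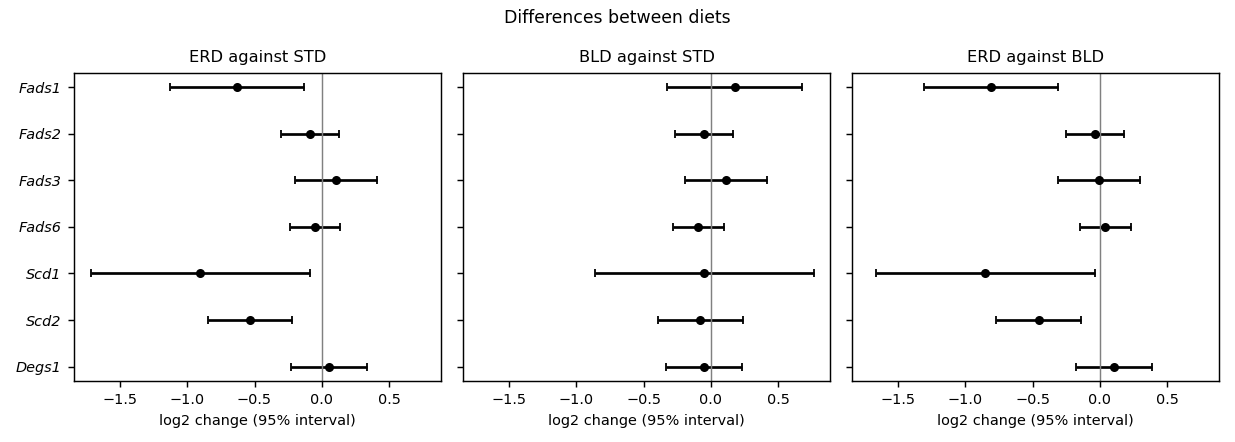
Log2 change with its 95% interval (horizontal axes) for the 7 desaturases in ERD against STD, BLD against STD and ERD against BLD, from 1 limma fit over 15 arrays. The intervals of Fads1, Scd1 and Scd2 lie below 0 in both comparisons with ERD, and the adjusted p of every point was above 0.05.

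In BLD against STD the log2 changes were 0.18 for Fads1, -0.05 for Fads2, 0.11 for Fads3, -0.09 for Fads6, -0.05 for Scd1, -0.08 for Scd2 and -0.05 for Degs1. None passed the adjusted threshold in limma, where 0.00887% of all genes did. An unadjusted p under 0.05 was reached by 0 of 7, against 10.9% of all genes, 3.09% being lower in BLD. The arrays of both diets were fully apart in 0 of 7, against 2.89% of all genes, and 5 of 7 were lower in BLD, against 39.4% of all genes. The lowest adjusted p was 0.726, for Fads6. The intervals were widest for Scd1, -0.86 to 0.76, and narrowest for Fads6, -0.28 to 0.10, so the interval of Scd1 in BLD nearly reached its change in ERD, -0.90.

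These BLD values moved with the scaling. Fads1 was at 0.41 after median centring and 0.34 with array weights, Fads3 at 0.37 after median centring, and Fads2 at -0.24 from the processed signals, where Fads6 was at -0.89. After median centring the direction of the list turned, with 6 of 7 higher in BLD than in STD and a median of 0.22, while the median of all genes was 0.18. In ERD against BLD the same centring left 6 of 7 lower, with a median of -0.34 against -0.20 for all genes.

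In ERD against BLD, 0% of all genes and 0 of the 7 desaturases passed the adjusted threshold in limma. An unadjusted p under 0.05 was found for 10.4% of all genes. Fads1, Scd1 and Scd2 were the 3 of 7 with such a p, all lower in ERD, as were 7.76% of all genes. The arrays were fully apart in 0 of 7, against 1.36% of all genes, and 5 of 7 were lower in ERD, against 58.1% of all genes. Fads1 was 1.75-fold, Scd1 1.81-fold and Scd2 1.37-fold lower in ERD. In the F test over the 3 diets the p was 0.00517 for Scd2 (adjusted p = 0.226), 0.00866 for Fads1 (adjusted p = 0.258) and 0.0549 for Scd1 (adjusted p = 0.375) in limma. In that test 0.0488% of all genes passed an adjusted p of 0.05 and 13.5% an unadjusted one.

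**Figure D4:**
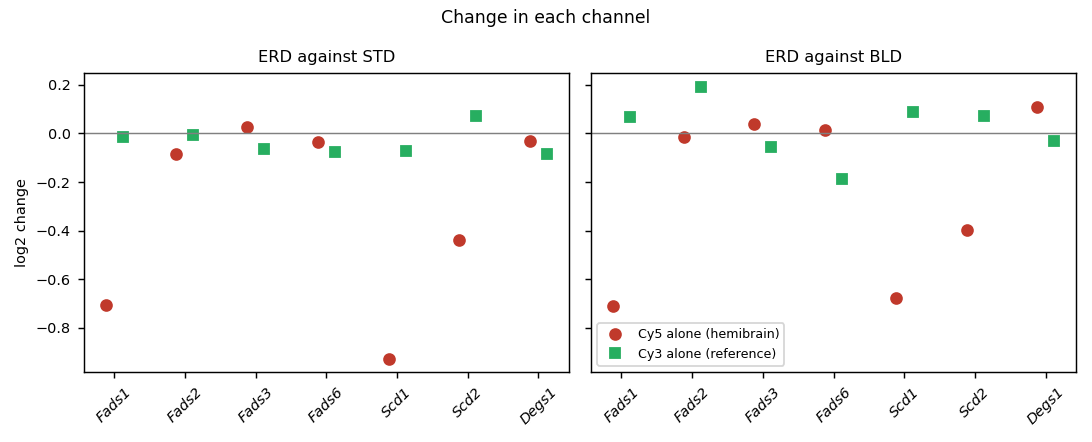
Log2 change in the Cy5 channel alone (circles, hemibrain) and in the Cy3 channel alone (squares, reference pool) for the 7 desaturases, in ERD against STD and ERD against BLD. Each channel was quantile-normalized across arrays. For Fads1, Scd1 and Scd2 the Cy5 change lies between -0.93 and -0.40 while the Cy3 change stays between -0.07 and 0.09.

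Slides that held both diets allowed a comparison of single arrays hybridised together. Slides 4, 5 and 7 held an ERD and an STD array each. Scd2 was lower on the ERD array of all 3, by log2 differences of -0.67, -0.50 and -0.24. Fads1 differed by -1.46 on slide 4, by 0.29 on slide 5 and by -0.12 on slide 7, and Scd1 by -2.34, 0.23 and 0.09. The differences in Fads1 and Scd1 thus lay mainly on slide 4, which held ERD 2, while that of Scd2 had 1 sign on all 3 slides. From Cy5 alone the Scd2 differences were -0.52, -0.65 and -0.0075, so that slide 7 showed almost none.

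Slides 1, 3 and 7 held ERD and BLD arrays. Fads1 was lower on the ERD array of each, by -0.31, -1.38 and -0.43. Scd1 differed by -0.34, -2.06 and 0.34, and Scd2 by -0.76, 0.26 and -0.41, with ERD 1 on slide 3. The sign of Scd2 on slide 3 depended on the scale. From Cy5 alone its difference was 0.36, while the deposited ratios in log2 were 0.06 on ERD 1 and 0.77 on BLD 1. With slide as a block the changes of ERD against STD were -0.45 for Fads1, -0.81 for Scd1 and -0.44 for Scd2, with adjusted p of 0.670, 0.625 and 0.505 in limma. Among arrays of the first scan day alone (4 ERD and 5 STD) they were -0.70, -0.97 and -0.46.

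**Figure D5:**
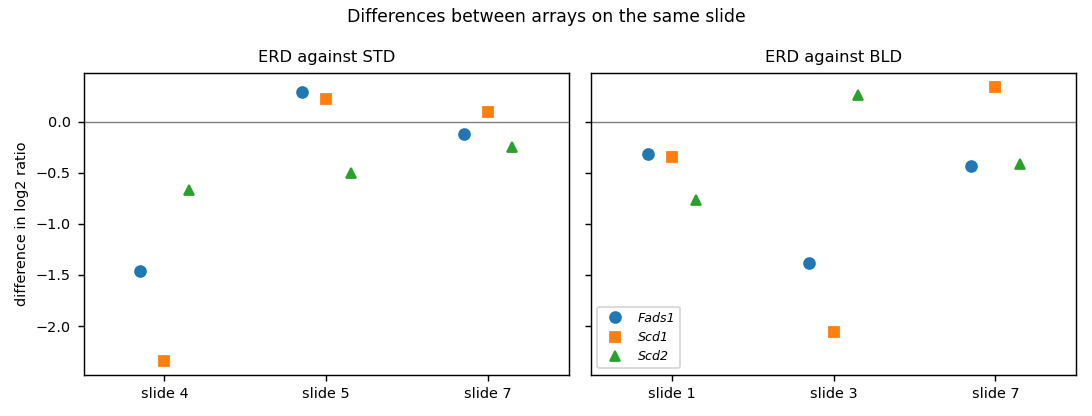
Difference in log2 ratio between arrays on the same slide (vertical axis) for Fads1, Scd1 and Scd2, ERD minus STD on slides 4, 5 and 7 and ERD minus BLD on slides 1, 3 and 7. Each point is 1 ERD array against 1 array of the other diet, except slide 1, where it is against the mean of 2 BLD arrays. Scd2 lies below 0 on all slides except slide 3.

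Cell type markers were read beside these values, because in tissue RNA fewer cells of a type and less RNA per cell cannot be told apart. The summed Cy5 intensities below are processed values that were not scaled to the brightness of each array. ERD 1 and BLD 1 had the fewest detected Cy5 spots, 17720 and 22467, so lower sums need not mean fewer cells. The summed Cy5 intensity of 8 astrocyte markers was 220407 to 482283 on ERD arrays, 198665 to 471156 on BLD arrays and 413784 to 585649 on STD arrays. That of 9 oligodendrocyte markers was 157583 to 367871 on ERD arrays, 125125 to 238353 on BLD arrays and 121465 to 296995 on STD arrays. In ERD against STD the median log2 change was -0.13 for the astrocyte list, -0.26 for the oligodendrocyte list and -0.19 for the 9 neuronal markers, with 6 of 8, 7 of 9 and 7 of 9 markers lower and 0 called in limma. From the processed signals these medians were -0.03, -0.17 and -0.05, and from Cy5 alone -0.17, -0.03 and -0.12. In ERD against STD 47.1% of all genes were lower and 0.217% were called. The neuronal sum was 320741 to 669201 on ERD arrays, 319484 to 526073 on BLD arrays and 394661 to 561075 on STD arrays. Each marker of the 3 lists was well above background on at least 1 array. Of 6 measured blood markers, 6 were lower in ERD than in BLD (median log2 change -0.31), as were 58.1% of all genes. In BLD against STD 5 were higher and 1 lower (median 0.32), and 0 were called in either comparison in limma. From the processed signals these blood medians were 0.01 and -0.38, and from Cy5 alone -0.43 and 0.82. The part of all these markers in the desaturase values was not tested.

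Genes that work with the desaturases were read from 7 lists, and 0 of their genes passed the test in any comparison. These lists too were chosen with earlier results of these data known. Of all genes, 0.217% passed in ERD against STD, 0.00887% in BLD against STD and 0% in ERD against BLD, so few could have been called. With no threshold, 47.1% of all genes were lower in ERD than in STD, a share to set beside the counts below. Of 12 measured genes of the elongation cycle, which lengthens the chain between desaturations, 9 were lower and 3 higher in ERD than in STD, with a median log2 change of -0.12 that was -0.21 after median centring. Elovl4, which makes very long polyunsaturated chains, had the lowest p of that list, with a mean of 1.96 ± 0.95 in ERD, 2.86 ± 0.46 in BLD and 3.10 ± 0.33 in STD (SD, n = 5 each). Its ERD arrays read 0.62, 2.34, 1.80, 1.82 and 3.25, and 4 of the 5 lay below all STD arrays. The log2 change was -1.14 against STD (adjusted p = 0.188 in limma) and -0.89 against BLD (adjusted p = 0.446 in limma). From Cy5 alone these changes were smaller, -0.70 and -0.29, and without ERD 1 they were -0.81 and -0.56.

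Genes of de novo fatty acid synthesis, which supplies the saturated chains that Scd1 and Scd2 act on, did not pass the test. All 7 had a higher mean in ERD than in STD, by 0.01 to 0.46 on the log2 scale with a median of 0.32, where 11937 of the 22557 genes tested were higher. The difference between this list and the desaturases was not tested. Under 4 other scalings 6 or 7 of them were higher in ERD than in STD, with medians of 0.22 to 0.42. Acaca, the acetyl-CoA carboxylase that commits carbon to synthesis, differed by 0.45 on the log2 scale (adjusted p = 0.250 in limma), and 1 of the 7 had an unadjusted p under 0.05, against 14.6% of all genes. In BLD against STD 5 of these 7 genes were higher, with a median of 0.11.

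Of the 5 measured genes of the cytochrome b5 electron chain, 3 were higher and 2 lower in ERD than in STD, with a median log2 change of 0.14 that was 0.0068 from the processed signals and 0.02 from Cy5 alone. Cyb5b, the form on the outer mitochondrial membrane, differed by 0.30 on the log2 scale in ERD against STD (adjusted p = 0.277 in limma) and 0.25 in BLD against STD (adjusted p = 0.470 in limma). Among 8 genes of peroxisomal chain shortening, which completes the synthesis of docosahexaenoic acid, 5 were higher and 3 lower, with a median of 0.03 that was -0.05 from the processed signals and -0.06 after median centring. Acaa1b, a peroxisomal thiolase, averaged 0.47 ± 0.30 in ERD, 0.16 ± 0.14 in BLD and -0.04 ± 0.18 in STD (SD, n = 5 each), and its ERD arrays lay above all STD arrays. Its log2 change was 0.50 in ERD against STD (adjusted p = 0.147 in limma). The arrays of these diets were fully apart in 3.78% of all genes, and Acaa1b was named for the lowest p of the F test in its list.

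A list of 12 genes held SREBP, LXR and PPAR regulators, which control desaturase genes in liver, and genes that work with them. It was not sorted into activators and inhibitors, so its counts have no single direction. Of the 12, 5 were higher and 7 lower in ERD than in STD. The median was -0.10, and it was -0.17 with no background correction and -0.06 from the processed signals. Nr1h3, which encodes the oxysterol receptor LXR alpha, averaged 0.63 ± 0.17 in ERD, 0.52 ± 0.20 in BLD and 0.18 ± 0.12 in STD (SD, n = 5 each). Both the ERD and the BLD arrays lay above all STD arrays, with log2 changes of 0.44 (adjusted p = 0.122) and 0.34 (adjusted p = 0.401) in limma. The gap was narrow for BLD, with BLD 4 at 0.33 and STD 3 at 0.29. Of all genes, 3.78% had ERD arrays fully apart from the STD arrays, and 2.89% had BLD arrays so. Nr1h3 was named for the lowest p of the F test in its list. From Cy5 alone its log2 change from STD was 0.37 for ERD and 0.16 for BLD. Of 10 ceramide synthesis genes measured beside Degs1, 2 were higher and 8 lower, with a median of -0.06 that was -0.30 from the processed signals. Cers2, a ceramide synthase, differed by -0.27 on the log2 scale (adjusted p = 0.519 in limma), with no value on BLD 1 in the fit. The remaining list, of other desaturases, held 2 measured genes, 1 higher and 1 lower.

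Likeness was measured as the Pearson correlation of log2 ratios over the 15 arrays with each of 13663 genes that had a symbol and a value on every array. The 3 genes most like Scd1 were Irf2bp2 (r = 0.967), Tmed2 (r = 0.963) and Prdx3 (r = 0.963). Those most like Fads1 were Foxk1 (r = 0.932), Chtop (r = 0.927) and Tnfrsf21 (r = 0.921). For Scd2 they were Saraf (r = 0.892), Zbtb33 (r = 0.859) and Hectd2 (r = 0.849). All points share their arrays, and the highest values among so many genes are high by selection.

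For each of the other 4 desaturases, the highest correlation was below those of Scd1, Fads1 and Scd2. The genes most like Degs1 were Fh1, Syap1 and Dhx40 (r = 0.884, 0.868 and 0.860), and those of Fads2 were Tanc1, Fkbp1a and Hyou1 (r = 0.866, 0.855 and 0.854). Fads3 was most like Snx11 and Map2k5 (r = 0.854 and 0.845), followed by Klc2, and Fads6 most like Mafg and Ssbp3 (r = 0.825 and 0.795). With the number of detected Cy5 spots per array, the correlation over the 15 arrays was 0.31 for Fads1, 0.30 for Scd1 and 0.04 for Scd2.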

How the data were processed

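Hemibrain samples of 15 mice, 5 per diet, were hybridised in Cy5 against a reference in Cy3 on 2-colour arrays. No dye was swapped, so dye and sample cannot be told apart within an array, while comparisons between diets share the dye. Per the file headers, the deposited scanner files hold median pixel intensities of spot and local background, and processed intensities after background subtraction and dye normalization. The deposited log10 ratios of Cy5 over Cy3 equal those of the scanner files and were turned into log2 where printed. Agilent Feature Extraction had version 11.5.1.1 in the file headers and version 10.7 in the submitters' processing notes.

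Median intensities were background-corrected with normexp (offset 50) and loess-normalized within arrays, using limma 3.58.1 under R 4.3.3. Values from Cy5 or Cy3 alone had the same background correction, and each channel was then quantile-normalized across arrays instead. Spots flagged as outliers by the scanner software (0.574%) were removed. A probe was kept if its Cy5 signal was well above background on 5 or more arrays and it had 8 or more values. The brightest kept probe in Cy5 stood for its symbol, and 8794 features had no symbol. One limma fit over all arrays (12 residual degrees of freedom) gave the 3 comparisons and an F test, with 2-sided p and Benjamini-Hochberg adjustment over 22557 features. Arrays were the replicates, their number limits the precision, and the standard error of a log2 change of ERD against STD had a median of 0.163. The labels do not say whether animals of a diet shared a litter or cage, so p-values measure the spread between these arrays. Results were recomputed under 27 alternatives. The limma fit alone was also run on simulated log2 ratios, drawn independently for each array with the same spread in all diets. Background correction, normalization, outlier removal and the filter were not part of that simulation. Slides were told apart by array barcode, and scan days by scan time. The data.table package (version 1.17.8) handled the tables, and figures were made in Python 3.11.15 with matplotlib 3.10.9 and pandas 2.3.3.

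The desaturases, the 7 pathway lists and the marker lists were chosen with earlier results of these data known. The gene with the lowest p of the F test was named from each pathway list, and the 3 genes of highest correlation for each desaturase, of which 1 for Fads6 is not reported here. Coordinates are left out because the headers use another genome build than the gene reference.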

Additional observations from a re-analysis of the deposited data

Results flagged for a closer look

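A value was singled out where its gap to the nearest other array exceeded 0.71 of the range in a group of 5 arrays, Dixon's critical value, or the corresponding higher value for a group of 4. Chance gives about 1 such value in 20 groups. Of 42 groups examined (14 genes in 3 diets), 41 had 5 values and 1, Cers2 in BLD, had 4. In all, 3 held such a value, each of them in ERD. Fads3 on array ERD 5 was at a log2 ratio of -1.95, against -1.32 to -1.19 on the other ERD arrays. Scd3 on array ERD 2 was at 2.73, against 1.58 to 1.77 on the other ERD arrays. Nr1h3 on array ERD 2 was at 0.92, against 0.50 to 0.61 on the other ERD arrays.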

How the results depend on the processing

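No desaturase passed the adjusted threshold in limma in any of the 558 values that the 27 alternatives gave for the 7 genes in the 3 comparisons. Fads1, Scd1 and Scd2 kept their negative sign in both comparisons with ERD under every alternative that gave a value. In ERD against STD the range was -1.06 to -0.38 for Fads1, -1.46 to -0.53 for Scd1 and -0.64 to -0.41 for Scd2, and the lowest adjusted p of the 3 was 0.0676, for Scd2 without ERD 1. Requiring all arrays above background left out Fads2, Fads6, Scd1 and Cers2. Median centring moved the median of all genes to 0.18 in BLD against STD and to -0.20 in ERD against BLD. Signs turned in 58 of 1122 values of named genes, 32 of them desaturases, and 0 of these values were called. The cause of the changes below was not tested.

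No paired analysis was possible because the labels give no replicate number that animals of different diets share. Different animals on the same slide were compared within slides and with slide as a block.

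In ERD against STD, 49 genes passed. There were 92 with Cy5 detection as a covariate, 125 with array weights, 32 with all arrays above background, 11 with scan day as a block, 1 with slide as a block, and 0 with median centring or without the 3 least correlated arrays. Leaving out 1 array gave 5 (ERD 4) to 169 (ERD 3), with other shifts beyond 1.5 times without BLD 2, BLD 4, ERD 2 or any STD array. In BLD against STD, where 2 passed, there were 27 with array weights, 5 with no filter or with all arrays above background, 1 with median centring, no background correction, processed signals or scan day as a block, 0 with slide as a block, and 1 to 10 with 1 array left out. In ERD against BLD, where 0 passed, there was 1 with slide as a block, and 0 to 1 with 1 array left out. In the F test, where 11 passed, there were 20 from Cy5 alone, 45 with the covariate, 51 with array weights, 3 with scan day as a block, 2 with no background correction, and 1 with median centring, processed signals, slide as a block or without the 3 least correlated arrays. With 1 array left out the F test gave 1 to 24. Where 0 passed, the genes with an unadjusted p under 0.05 numbered 1604 with median centring and 2098 without the 3 arrays in ERD against STD, 1206 with slide as a block in BLD against STD, and 2342 in ERD against BLD as reported.

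The following log2 changes had the opposite sign to the one reported. After median centring they were 0.25 for Degs1, 0.11 for Fads2, 0.22 for Scd1, 0.22 for Scd2 and 0.035 for Elovl4 in BLD against STD. In ERD against BLD they were then -0.28 for Degs1, -0.051 for Acaa1b, -0.21 for Acaca, -0.24 for Cyb5b and -0.090 for Nr1h3, and in ERD against STD -0.032 for Degs1 and 0.046 for Fads6. With slide as a block they were -0.053 for Degs1, -0.013 for Fads3, 0.015 for Fads6 and -0.075 for Scd3 in ERD against STD. In BLD against STD they were then 0.0032 for Fads2, 0.28 for Elovl4 and -0.067 for Scd3, and -0.0078 for Scd3 in ERD against BLD. From the processed signals they were -0.036 for Fads3 in ERD against STD, and -0.0081 for Fads3, 0.091 for Scd2, -0.024 for Cers2 and -0.23 for Scd3 in BLD against STD. From Cy5 alone they were -0.031 for Degs1 in ERD against STD, -0.010 for Fads3 in BLD against STD, and 0.037 for Fads3 and -0.084 for Cyb5b in ERD against BLD. With array weights they were -0.012 for Degs1 and -0.049 for Scd3 in ERD against STD, 0.021 for Scd1 and -0.027 for Scd3 in BLD against STD, and -0.022 for Scd3 in ERD against BLD. Scd3 in BLD against STD was -0.16 without background correction and -0.060 with the covariate. Fads6 in ERD against BLD was -0.0022 with scan day as a block. Without the 3 least correlated arrays Fads6 was 0.0066 in ERD against STD and Scd1 0.093 in BLD against STD.

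Leaving out 1 array turned some signs too. In ERD against STD the range was -0.012 to 0.15 for Degs1 and -0.065 to 0.35 for Scd3. In BLD against STD it was -0.11 to 0.015 for Degs1, -0.12 to 0.093 for Scd1 and -0.18 to 0.22 for Scd3. In ERD against BLD it was -0.10 to 0.0081 for Fads2, -0.063 to 0.13 for Fads3, -0.0014 to 0.078 for Fads6, -0.076 to 0.22 for Scd3 and -0.0023 to 0.11 for Cyb5b. Acaa1b passed the threshold in ERD against STD from Cy5 alone (log2 change 0.58, adjusted p = 0.0273 in limma).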
